A study of Mus musculus with 12 samples.

Results

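Loss of p62 was examined in mouse liver whose hepatocytes already lacked Tsc1, by RNA-seq of 6 of the 12 liver libraries of the series. The 3 test libraries, Tsc1/p62Δhep, came from mice homozygous for floxed Sqstm1 (the p62 gene) and floxed Tsc1, and the 3 reference libraries, Tsc1Δhep, from mice homozygous for floxed Tsc1 only. All 6 carried the Alb-Cre transgene, whose albumin promoter is active in hepatocytes, so that the Cre and the Tsc1 deletion were shared by both groups and the p62 deletion set them apart. Both lines were on a C57BL/6 background after at least 7 generations of backcrossing. Age, sex, diet and tumour state are not given for single samples in the sources used here. The deposited comparison carries the word NORMAL after the Tsc1 knockout in its name. The labels do not explain that word, and whether it means non-tumour tissue is not known here. The series' text names a low-fat and a high-fat diet without assigning them. The other 6 libraries, floxed p62F/F mice without Cre and p62Δhep mice with it, served only for the question of whether the p62 effect depended on Tsc1. All 23420 genes of the deposited count table were considered, and 12620 passed a filter on low counts and were tested.

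The adaptor p62 collects ubiquitinated cargo for selective autophagy, and it also binds KEAP1, the adaptor that otherwise sends the antioxidant transcription factor NRF2 to the proteasome. When p62 accumulates, KEAP1 is drawn away and NRF2 target genes are transcribed. The TSC1 protein is a partner in the complex that keeps the growth kinase mTORC1 in check, and livers without it combine high mTORC1 activity with poor autophagy, stored p62, injury, regeneration and tumours. mTORC1 also raises translation of ATF4, the transcription factor of amino acid supply.

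Library totals were 17492176 to 33377247 counts in Tsc1Δhep and 15792048 to 17809454 in Tsc1/p62Δhep. Levels are given as CPM, counts per 1000000 after TMM scaling within the 6 libraries, in the order of libraries 1, 2 and 3 of each group. No label states that a group's libraries are from different animals, so the p-values speak to the spread of these samples alone, part of which may be technical. The first principal component held 71.5% of the variance and separated the groups, with Tsc1Δhep library 3 nearest to the double-deleted ones. Tsc1Δhep library 1 lay at the other end and was also high in short transcripts, by 0.44 on the log2 scale for the fifth of genes with the shortest transcripts, and low in the longest, by -0.44. The other 5 libraries ranged from -0.24 to 0.22 and from -0.22 to 0.23. Library 3 of Tsc1/p62Δhep stood apart from libraries 1 and 2 of its group for sex-biased and some replication genes, given with them. With the GC content and length trend of each library removed, limma called 190 of the 197 named genes that edgeR had called, all in the same direction. Those genes were mostly chosen for their calls in these data, so that this does not measure what the trend does. Over all genes that fit called 1908 higher and 2154 lower, against 1167 and 1886 with edgeR. All 6 libraries had the Y-linked Ddx3y at 1607 to 2361 counts and at most 2 counts of Xist, so none had the pattern of a female. Hepatocyte markers took 87341 to 130052 CPM in sum in Tsc1Δhep and 172078 to 198846 CPM in Tsc1/p62Δhep, as fits the labelled tissue, whereas the exocrine and endocrine pancreas markers Prss1, Cpa1, Amy2a5, Pnlip, Ctrb1 and Ins2 had no count.

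The targeted gene followed the labels in every library. Sqstm1 stood at 1210.0, 789 and 1002 CPM in Tsc1Δhep and 14.4, 17.4 and 19.6 CPM in Tsc1/p62Δhep, a 58.4-fold lower level with no overlap (log2 fold change -5.87 ± 0.31 SE, edgeR adjusted p of 0.000366). The low reading that remained covers the whole transcript count, so that reads from other cells or from undeleted parts of the gene cannot be told apart. Tsc1 itself had 5.76, 5.39 and 10.9 CPM in Tsc1Δhep and 13.7, 11.9 and 9.35 CPM in Tsc1/p62Δhep, low in all 6, and the groups overlapped (log2 fold change 0.66, adjusted p of 0.188). Nfe2l2, which encodes NRF2, had 88.2, 97.3 and 90.2 CPM in Tsc1Δhep and 82.8, 102 and 94.9 CPM in Tsc1/p62Δhep, and these values overlapped fully. Keap1 read 38.2, 35.8 and 48.9 CPM in Tsc1Δhep and 68.6, 67.6 and 54.9 CPM in Tsc1/p62Δhep, without overlap but short of the threshold (log2 fold change 0.64 ± 0.21 SE, edgeR adjusted p of 0.065), and it passed when Tsc1Δhep library 3 was left out.

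The quasi-likelihood test of edgeR, adjusted after Benjamini and Hochberg, called 1167 genes higher and 1886 lower in Tsc1/p62Δhep at an adjusted p below 0.05, which is 9.25% and 14.9% of all genes tested. These shares are the background for every gene group that follows. Groups did not overlap, the double-deleted libraries all above or all below, for 22.3% and 23.4% of genes. The median log2 fold change over all genes was -0.05. Scaled by library totals instead of TMM that median moved to -0.40 and the calls to 576 higher and 3337 lower, so that higher genes made up 14.7% of calls in place of 38.2%. The counts rested on single libraries too: they were 2686 and 3139 without Tsc1Δhep library 3, 448 and 1162 without Tsc1Δhep library 2, and 351 and 760, 384 and 798, and 666 and 1219 without Tsc1/p62Δhep libraries 1, 2 and 3. Of the called genes, 314 higher and 699 lower ones were called again in all 6 fits with a library left out, and the genes described with values are mostly of this kind. Where a gene group is given with 0 calls in a direction, or with calls in 1 direction only, edgeR called 0 of its members in the other, at most 3 members of any such group had an unadjusted p below 0.05 there, and DESeq2 called at most 2.

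**Figure D1:**
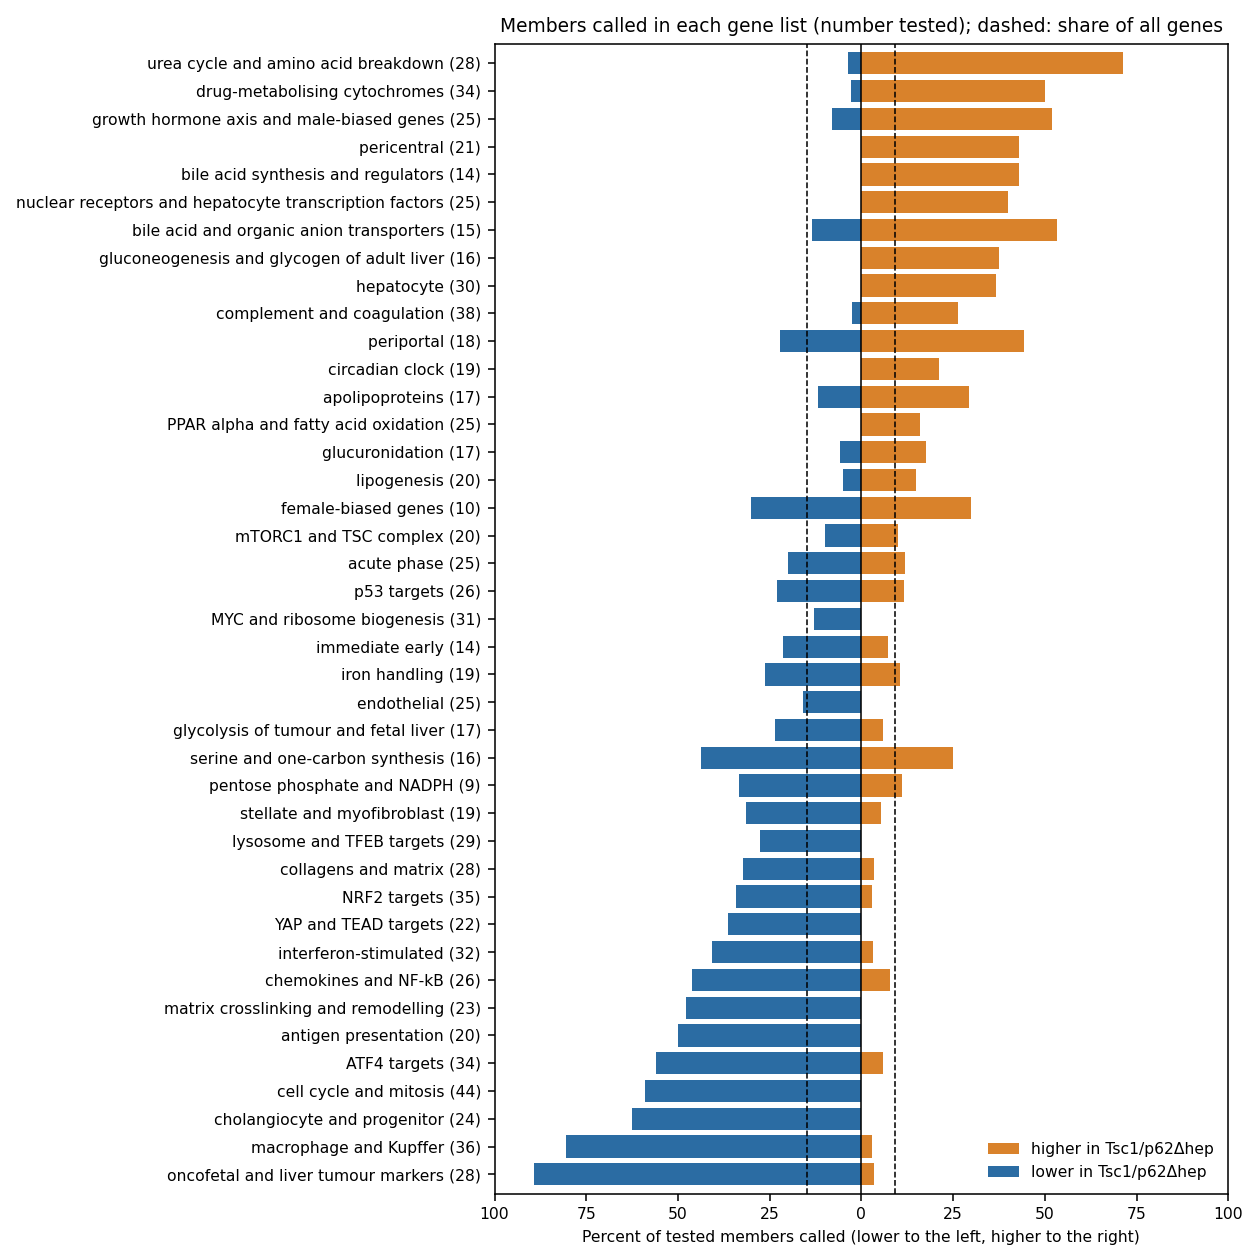
Percent of the tested members of 41 gene lists that were called higher (right, orange) or lower (left, blue) in Tsc1/p62Δhep than in Tsc1Δhep, with dashed lines at the 9.25% and 14.9% of all genes called. Lists with few tested members or few calls were not drawn, so the lists shown were in part selected by their calls. Among those left out were ribosomal proteins, the respiratory chain, the proteasome, the unfolded protein response, cholesterol synthesis and selective autophagy receptors. Bars for oncofetal, macrophage, cell cycle and progenitor lists extend to the left. Bars for amino acid breakdown, bile acid transport, drug-metabolising cytochromes and growth hormone axis genes extend to the right.

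The antioxidant genes that NRF2 transcribes fell in part. Of 35 NRF2 targets tested, 12 fell and 1, the aldehyde oxidase Aox1, rose, and 8 of the 12 kept their call without each library. Aox1 was not called without Tsc1Δhep library 2 or any 1 of the Tsc1/p62Δhep libraries. The list median was -0.65. The fall was deepest for Slc7a11, which encodes the cystine importer of glutathione synthesis: 267, 142 and 101 CPM in Tsc1Δhep and 0.848, 0.655 and 0 CPM in Tsc1/p62Δhep, 339.6-fold lower (log2 fold change -8.41 ± 0.86 SE, edgeR adjusted p of 0.00128). Cbr3, a carbonyl reductase, read 261, 133 and 30.7 CPM in Tsc1Δhep and 1.34, 1.57 and 0.454 CPM in Tsc1/p62Δhep, and all double-deleted libraries lay below the lowest Tsc1Δhep library. The conjugate exporter Abcc4 had 214, 136 and 97.95 CPM in Tsc1Δhep and 7.06, 6.16 and 6.17 CPM in Tsc1/p62Δhep (23.1-fold lower). Nqo1, the quinone reductase often used as a readout of NRF2, went from 104, 78.5 and 31.8 to 9.11, 9.04 and 13.1 CPM, a fall of 6.85-fold. Its relatives in redox repair did so to a lesser extent, as Srxn1, the sulfiredoxin, stood at 277, 229 and 167 CPM in Tsc1Δhep and 63.3, 73.5 and 82.6 CPM in Tsc1/p62Δhep and the haem oxygenase Hmox1 at 52.7, 48.8 and 54.6 CPM in Tsc1Δhep and 17.5, 25.4 and 15.6 CPM in Tsc1/p62Δhep. Both were without overlap and kept their call in every fit with a library left out.

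Other targets of NRF2 did not pass the test, and the split ran through single functions. Of the 2 subunits of the enzyme that starts glutathione synthesis, the catalytic Gclc had 1050.0, 1244 and 892 CPM in Tsc1Δhep and 295, 380.3 and 502 CPM in Tsc1/p62Δhep and fell 2.71-fold, a call that was lost without Tsc1/p62Δhep library 1 or 2, whereas the modifier Gclm had 399, 291 and 233 CPM in Tsc1Δhep and 225, 248 and 281 CPM in Tsc1/p62Δhep, with overlap. Thioredoxin reductase Txnrd1 (-0.33) and the transferase Gstm1 (-0.42) had small negative values and adjusted p of 0.361 and 0.257. Among the enzymes that supply NADPH, G6pdx, the entry step of the pentose phosphate pathway, stood at 42.8, 45.6 and 27.03 CPM in Tsc1Δhep and 4.94, 8.26 and 4.67 CPM in Tsc1/p62Δhep, 6.45-fold lower, and Pgd, the next oxidative step, fell 2.6-fold from 191, 113 and 115 CPM to 50.7, 65.1 and 45.3 CPM. Without Tsc1/p62Δhep library 1 or 3 Pgd was not called. The non-oxidative enzyme Tkt had a log2 fold change of -0.23, not past the threshold. Outside the list, the gastrointestinal glutathione peroxidase Gpx2 fell from 2190 counts over the Tsc1Δhep libraries to 3 over the others, a ratio of 402-fold (95% interval 138 to 1953) that covers counting error only, and the secreted peroxidase Gpx3 read 2674, 1044 and 622 CPM in Tsc1Δhep and 4.59, 6.03 and 15.5 CPM in Tsc1/p62Δhep.

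NRF2 binds the antioxidant response element, searched here as TGACNNNGC on both strands of the 300 bases from 250 before to 50 after each gene start in RefSeq (GRCm38.p6). Of 32851 promoters 12.4% held it, as did those of 17.1% of the genes tested that have one. It stood in 17.5% of those called lower and in 15.2% of those called higher. The NRF2 list was drawn from known targets, so that its share is no test. Of the 30 NRF2 targets with a promoter 9 held it, among them 4 of the 10 that fell. Stretches of 2 of these are shown because their genes had the clearest falls, with the match in capitals, in the direction of transcription. Abcc4 also had a match at another start, at chr14:118706220-118706269, which is not printed. Counts per gene symbol do not tell which start was in use.
G6pdx (chrX:74428904-74428962, - strand): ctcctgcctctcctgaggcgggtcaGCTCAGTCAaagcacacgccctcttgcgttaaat
Abcc4 (chr14:118676932-118676979, - strand): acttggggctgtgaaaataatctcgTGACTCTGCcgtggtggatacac
A match is a description of the letters, not a bound site.

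Of 11 receptors of selective autophagy, 2 fell, Sqstm1 itself and Fam134b, which serves turnover of the endoplasmic reticulum. Fam134b read 989, 647 and 262 CPM in Tsc1Δhep and 149, 135 and 127 CPM in Tsc1/p62Δhep, and lost its call without any 1 of the Tsc1/p62Δhep libraries, while 3 receptors were called higher without Tsc1Δhep library 3. Nbr1, the receptor most like p62, had 126, 191 and 319 CPM in Tsc1Δhep and 409, 424 and 328 CPM in Tsc1/p62Δhep (log2 fold change 0.87, adjusted p of 0.109). Of 20 genes of mTORC1 and the TSC complex, 2 rose (Rps6kb1 and Eif4ebp2) and 2 fell (Eif4ebp1 and Rragd). Rragd, a small GTPase that links lysosomal amino acids to mTORC1, stood at 289, 268 and 269.6 CPM in Tsc1Δhep and 41.3, 59.2 and 52.6 CPM in Tsc1/p62Δhep, a tight 5.4-fold difference (log2 fold change -2.43 ± 0.23 SE, edgeR adjusted p of 0.00104). It is also a target of TFEB, the transcription factor of lysosome genes, and of 29 genes of that list 8 fell and 0 rose. The falls numbered 5 and 4 without Tsc1Δhep libraries 1 and 2 and 2, 2 and 3 without Tsc1/p62Δhep libraries 1, 2 and 3, and only Rragd and the cathepsin gene Ctss, mainly a macrophage product, kept their call in every such fit. Without Tsc1Δhep library 3, 6 genes of the list were called higher. Of the mTORC1 calls, those of Rps6kb1, Eif4ebp2 and Eif4ebp1 were lost without Tsc1Δhep library 2 or any 1 of the Tsc1/p62Δhep libraries, and 8 rises and 5 falls were called without Tsc1Δhep library 3.

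Many genes of amino acid supply fell. Of 34 ATF4 targets, 19 fell and 2 rose (Gdf15 and Cebpb), with a median of -1.43, and 14 of the falls held without each library. Neither rise did, and 5 rises were called without Tsc1Δhep library 3. All 3 enzymes that make serine from glucose were among the falls. Phgdh, the first, had 74.5, 38.2 and 7.13 CPM in Tsc1Δhep and 0.141, 0.328 and 0.195 CPM in Tsc1/p62Δhep, 175-fold lower (log2 fold change -7.45 ± 1.01 SE, edgeR adjusted p of 0.00325). Psat1, the second, read 335, 181 and 90.02 CPM in Tsc1Δhep and 1.06, 1.38 and 6.56 CPM in Tsc1/p62Δhep, and Psph, the last, 183, 63.6 and 33.3 CPM in Tsc1Δhep and 5.23, 4.0 and 8.63 CPM in Tsc1/p62Δhep. For each of the 3 Tsc1Δhep library 1 was highest and library 3 lowest, still above every double-deleted library. The stress hormone Fgf21 stood at 36.1, 48.4 and 45.6 CPM in Tsc1Δhep and 0.283, 0.852 and 2.47 CPM in Tsc1/p62Δhep, 35.7-fold lower. Nupr1, a stress-induced chromatin protein, had 180.0, 74.6 and 34.1 CPM in Tsc1Δhep and 1.06, 1.97 and 2.66 CPM in Tsc1/p62Δhep, and the pseudokinase Trib3 134, 76.4 and 45.9 CPM in Tsc1Δhep and 11.6, 11.8 and 12.5 CPM in Tsc1/p62Δhep.

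Some transporters and tRNA synthetases of this programme fell too. Slc3a2, the heavy chain that pairs with Slc7a11, fell 4.53-fold (223, 141 and 146 CPM in Tsc1Δhep and 30.1, 30.9 and 51.5 CPM in Tsc1/p62Δhep), and the cationic amino acid transporter Slc7a1 11.02-fold (6.59, 5.88 and 3.9 CPM in Tsc1Δhep and 0.424, 0.590 and 0.454 CPM in Tsc1/p62Δhep). Of the 7 tRNA synthetases in the list 3 fell and 4 did not pass. Gars, the glycyl-tRNA synthetase, read 289, 163 and 151 CPM in Tsc1Δhep and 50.9, 63.6 and 64.01 CPM in Tsc1/p62Δhep and Sars, the seryl one, 233, 181 and 158 CPM in Tsc1Δhep and 67.5, 70.3 and 71.99 CPM in Tsc1/p62Δhep, both kept without each library, whereas the fall of Nars was lost without Tsc1Δhep library 2 or any 1 of the Tsc1/p62Δhep libraries. Aars, the alanyl one, had a positive value of 0.60 that did not pass (adjusted p of 0.167). Pck2, the mitochondrial form of the enzyme that makes phosphoenolpyruvate, fell 11.4-fold from 27.2, 47.1 and 39.2 CPM to 3.18, 2.1 and 4.67 CPM. Asns, asparagine synthetase and a classical ATF4 target, had 110.2, 108 and 103 CPM in Tsc1Δhep and 16.7, 12.4 and 0.0649 CPM in Tsc1/p62Δhep: the third library was far below the others of its group, and the gene just missed the threshold (adjusted p of 0.0538). Atf4 mRNA itself read 345, 260.2 and 153 CPM in Tsc1Δhep and 79.05, 102 and 78.6 CPM in Tsc1/p62Δhep, 2.92-fold lower, a call lost without any 1 of the Tsc1/p62Δhep libraries.

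ATF4 binds with C/EBP proteins to the amino acid response element, searched here as TGATGNAA on both strands of the same window. It stood in 3.97% of all promoters and in those of 2.79% of genes tested, 4.12% of genes called lower and 3.27% of those called higher. It was found in 10 of the 28 ATF4 targets with a promoter, 7 of which fell (Chac1, Trib3, Slc7a11, Fgf21, Nupr1, Gars and Pck2). The list was drawn from genes known as ATF4 targets, so that the share is no test. Slc7a11, Fgf21 and Pck2 are printed because they joined a match upstream of the start to a fall of over 10-fold. Slc7a11 held a pair of matches that face each other.
Slc7a11 (chr3:50443628-50443704, - strand): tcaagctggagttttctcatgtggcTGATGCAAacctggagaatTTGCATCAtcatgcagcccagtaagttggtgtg
Fgf21 (chr7:45615597-45615654, - strand): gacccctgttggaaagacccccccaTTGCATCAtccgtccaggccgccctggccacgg
Pck2 (chr14:55540138-55540195, + strand): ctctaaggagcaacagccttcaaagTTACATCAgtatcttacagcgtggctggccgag

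Some genes of one-carbon metabolism differed by compartment. Mthfd2, the mitochondrial folate dehydrogenase typical of fetal and tumour cells, read 44.02, 45.9 and 34.1 CPM in Tsc1Δhep and 0.706, 1.57 and 1.04 CPM in Tsc1/p62Δhep, 37.1-fold lower (log2 fold change -5.21 ± 0.35 SE, edgeR adjusted p of 0.000466), and Aldh1l2, the mitochondrial formyltetrahydrofolate dehydrogenase, 19.4, 11 and 2.63 CPM in Tsc1Δhep and 0.212, 0.655 and 0.260 CPM in Tsc1/p62Δhep. In the cytosol Mthfd1 had 52.1, 88.02 and 137 CPM in Tsc1Δhep and 351, 358 and 319 CPM in Tsc1/p62Δhep, 3.72-fold higher, and Aldh1l1, the cytosolic counterpart of Aldh1l2, rose 3.34-fold. Of 6 cytosolic folate enzymes 4 rose, Shmt1, Mthfd1 and Aldh1l1 among them, and 1 fell, and of 5 mitochondrial ones 2 fell and 0 rose. In the mitochondria Shmt2 had 0.72 (adjusted p of 0.0866), so the split did not hold for every enzyme. Without Tsc1Δhep library 2 or Tsc1/p62Δhep library 1 or 2 Mthfd1 was the only one of these 4 rises left, and the fall was not called either. In sum the 5 mitochondrial enzymes did not fall, with 184, 204 and 245 CPM in Tsc1Δhep and 240, 255 and 214 CPM in Tsc1/p62Δhep. DESeq2 called 1 of these 5 higher. The 6 cytosolic ones had 621, 789 and 880 CPM in Tsc1Δhep and 2792, 2510 and 1513 CPM in Tsc1/p62Δhep. This division by compartment was chosen after the values were seen.

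**Figure D2:**
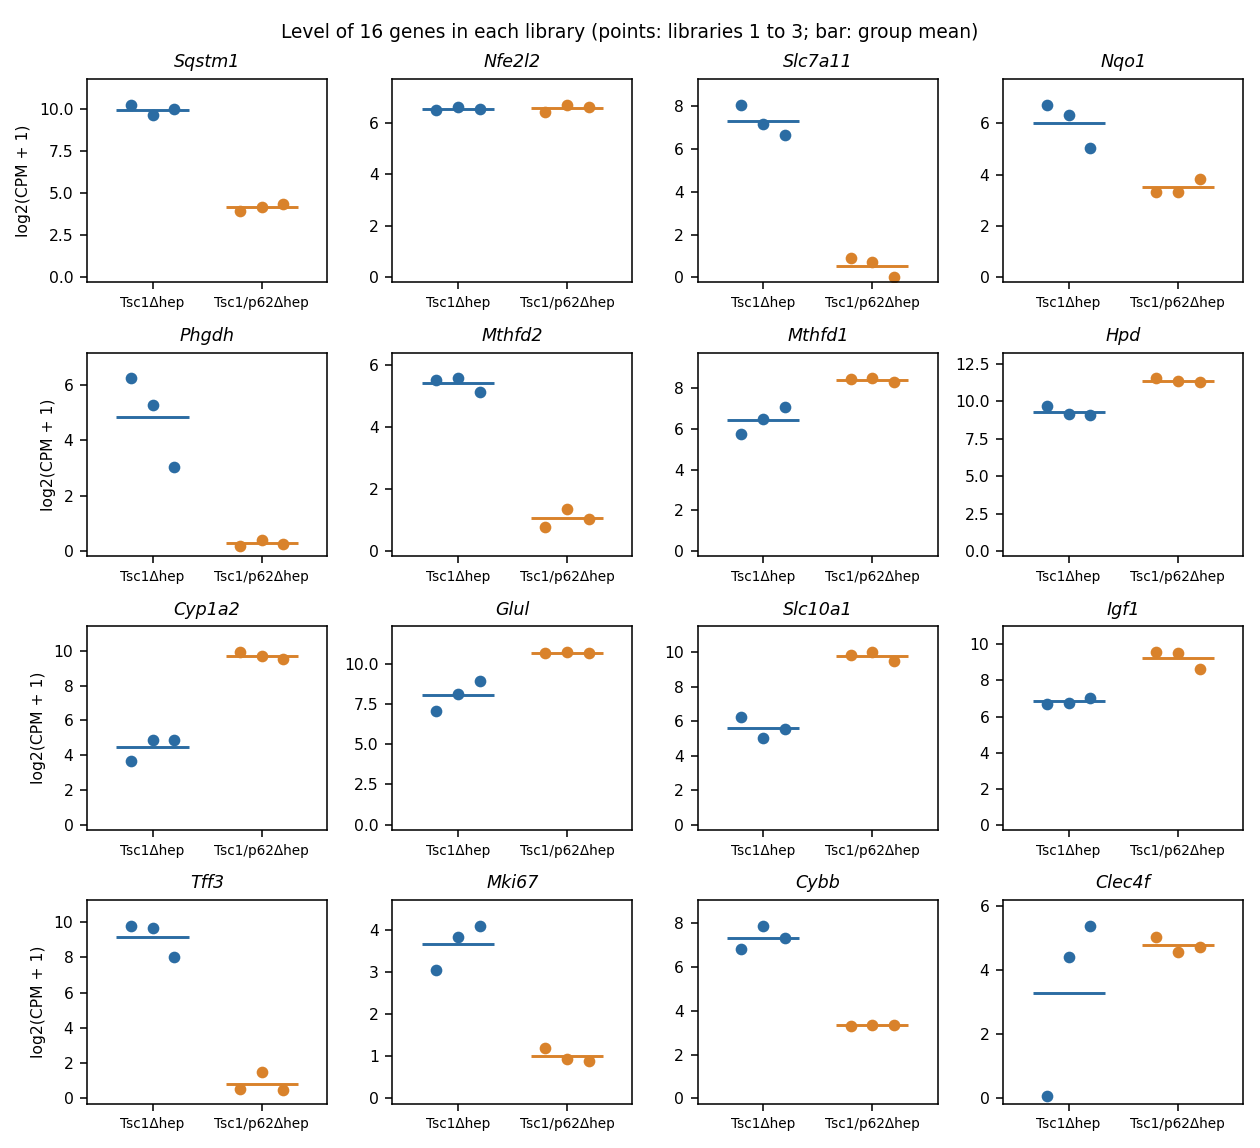
CPM of 16 genes on a log2(CPM + 1) axis, 1 point per library and a bar at the group mean of these logs, Tsc1Δhep in blue and Tsc1/p62Δhep in orange with libraries 1 to 3 from left to right. In each panel except Nfe2l2 and Clec4f the groups do not overlap, and Slc7a11, Phgdh and Mthfd2 lie near 0 in the double-deleted libraries.

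Carbohydrate genes fell for some glycolytic isoforms of growing cells and rose for glucose release. Of 17 glycolytic genes typical of tumour and fetal liver 4 fell, Hk2, Pfkp, Aldoa and Pkm, and 1 rose, Pfkfb3. Pfkp, the platelet type phosphofructokinase, had 79.9, 61.1 and 95.3 CPM in Tsc1Δhep and 1.2, 1.97 and 1.23 CPM in Tsc1/p62Δhep, 53.4-fold lower (log2 fold change -5.74 ± 0.33 SE, edgeR adjusted p of 0.000366), and it alone of the 5 kept its call without each library, with 1, 2 and 2 falls and 0, 1 and 0 rises left without Tsc1/p62Δhep libraries 1, 2 and 3 and 0 rises without Tsc1Δhep library 2. The pyruvate kinase gene Pkm read 196, 36.3 and 30.6 CPM in Tsc1Δhep and 8.41, 7.8 and 11.4 CPM in Tsc1/p62Δhep, with Tsc1Δhep library 1 apart from the others of its group. Gapdh had a log2 fold change of -0.24 and did not pass the test. Of 16 genes of gluconeogenesis and glycogen 6 rose and 0 fell: G6pc, Pck1, Fbp1, Gys2, Pygl and Tat. G6pc, which releases free glucose, stood at 123, 85.8 and 100.2 CPM in Tsc1Δhep and 417, 307 and 722 CPM in Tsc1/p62Δhep, Fbp1 at 379, 505 and 614 CPM in Tsc1Δhep and 1272, 1220.4 and 1358 CPM in Tsc1/p62Δhep and the glycogen phosphorylase Pygl at 144, 119 and 186 CPM in Tsc1Δhep and 553, 614 and 552 CPM in Tsc1/p62Δhep, all without overlap and all kept without each library. Without Tsc1/p62Δhep library 1 the count was 3 of 16.

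Genes of nitrogen disposal rose as a group. Of 28 genes of the urea cycle and amino acid breakdown 20 rose and 1 fell, with a median of 1.35, though the rises numbered 9 and 12 without Tsc1/p62Δhep libraries 1 and 2 and 10 without Tsc1Δhep library 2. Cps1, which fixes ammonia, had 894, 936 and 1259 CPM in Tsc1Δhep and 6315, 4167 and 2947 CPM in Tsc1/p62Δhep (4.35-fold higher). Hpd, of tyrosine breakdown, stood at 829, 566 and 538 CPM in Tsc1Δhep and 2970.2, 2619.6 and 2522 CPM in Tsc1/p62Δhep, 4.2-fold higher, Hgd, further down that pathway, at 279.9, 334 and 311 CPM in Tsc1Δhep and 866, 811 and 739.7 CPM in Tsc1/p62Δhep, and Uroc1, of histidine breakdown, at 179.8, 122 and 216 CPM in Tsc1Δhep and 612, 539 and 601 CPM in Tsc1/p62Δhep. Gls2, the liver type glutaminase, read 122, 194 and 172 CPM in Tsc1Δhep and 642, 494 and 374 CPM in Tsc1/p62Δhep. Ass1, another urea cycle gene, was listed at under 2 CPM in all 6 libraries and its level is taken as uncertain.

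Markers of the pericentral zone, the hepatocytes around the central vein that live under Wnt signalling, were higher. Of 21 tested 9 rose and 0 fell, the median was 2.97, and 19 did not overlap between groups, against 22.3% of all genes. Cyp1a2 read 11.9, 28.4 and 27.97 CPM in Tsc1Δhep and 970.5, 848 and 733 CPM in Tsc1/p62Δhep (log2 fold change 5.22 ± 0.42 SE, edgeR adjusted p of 0.000624), Nr1i3, which encodes the nuclear receptor CAR, 1.13, 3.63 and 3.0 CPM in Tsc1Δhep and 97.98, 88.5 and 92.6 CPM in Tsc1/p62Δhep, and the dioxin receptor Ahr 7.54, 15.7 and 15.5 CPM in Tsc1Δhep and 116, 70.8 and 123 CPM in Tsc1/p62Δhep. Glutamine synthetase, Glul, the classical marker of the innermost layer, stood at 134, 277 and 481 CPM in Tsc1Δhep and 1617, 1689 and 1604 CPM in Tsc1/p62Δhep, 5.5-fold higher. Notum, a secreted Wnt inhibitor, had 2.56, 3.52 and 5.4 CPM in Tsc1Δhep and 24.5, 26.2 and 39.3 CPM in Tsc1/p62Δhep. Oat, ornithine aminotransferase, read 4.64, 23.9 and 53.3 CPM in Tsc1Δhep and 1522, 876 and 386 CPM in Tsc1/p62Δhep, and without Tsc1Δhep library 2 it was not called. Cyp2e1, the most abundant gene of the list, had 4.68, 554 and 1236 CPM in Tsc1Δhep and 10546, 11444 and 12487 CPM in Tsc1/p62Δhep, apart by far but with a spread within Tsc1Δhep that kept it short of the threshold (adjusted p of 0.0654). The number of rises was 5 without Tsc1Δhep library 2 and 18 without Tsc1Δhep library 3. Periportal markers were not the mirror image: of 18, 8 rose and 4 fell. The rises numbered 4 and 5 without Tsc1/p62Δhep libraries 1 and 2, and the falls 1, 1 and 0 without Tsc1Δhep library 2 and those same 2 libraries.

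Drug-metabolising cytochromes rose, with 17 of 34 higher and 1 lower, a median of 1.62 and 10 kept without each library. The mouse Cyp2c, Cyp2b and Cyp3a genes have close paralogs, so the split of reads among them is uncertain. Cyp2c37 read 23.3, 41.4 and 18.3 CPM in Tsc1Δhep and 984, 1014 and 1346 CPM in Tsc1/p62Δhep and Cyp2c50 4.94, 28.5 and 10.8 CPM in Tsc1Δhep and 1483, 1503 and 1196 CPM in Tsc1/p62Δhep, and Cyp3a11, the main steroid and drug hydroxylase, 528, 142 and 123 CPM in Tsc1Δhep and 4755, 6204 and 8345 CPM in Tsc1/p62Δhep. Por, the reductase that feeds electrons to all of them, rose 3.13-fold, from 252, 176 and 208 CPM to 657, 484 and 850.4 CPM. The 1 member that fell, Cyp2a4, had 722, 27.3 and 40.4 CPM in Tsc1Δhep and 1.7, 3.74 and 7.53 CPM in Tsc1/p62Δhep and lost its call without any 1 of the Tsc1/p62Δhep libraries. Among 17 glucuronidation genes 3 were higher and 1 lower, with 1 rise left without Tsc1/p62Δhep library 1 or 2 and 4 falls without Tsc1Δhep library 3.

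Genes of bile acid synthesis and transport rose. Of 14 genes of synthesis and its regulators 6 rose and 0 fell (Cyp8b1, Cyp27a1, Cyp7b1, Hsd3b7, Slc27a5 and Fgfr4), with 4 to 8 rises whichever library was left out. Cyp27a1, which opens the acidic pathway, stood at 126, 149 and 209 CPM in Tsc1Δhep and 646, 646 and 554 CPM in Tsc1/p62Δhep, 3.82-fold higher, and Slc27a5, the ligase that activates bile acids, at 282, 413 and 390.0 CPM in Tsc1Δhep and 1498, 1354 and 1477 CPM in Tsc1/p62Δhep. Cyp7a1, the rate-limiting enzyme of the classical pathway, had 3.08, 124 and 242 CPM in Tsc1Δhep and 560.1, 337 and 276 CPM in Tsc1/p62Δhep, without overlap but with a wide spread in Tsc1Δhep, and did not pass (adjusted p of 0.288). Of 15 transporters 8 rose and 2 fell. The uptake carriers Slc10a1 and Slco1b2 read 74.7, 30.97 and 45.6 CPM in Tsc1Δhep and 920.0, 1021 and 705 CPM in Tsc1/p62Δhep, and 392, 684 and 714 CPM in Tsc1Δhep and 2893, 2951 and 3158 CPM in Tsc1/p62Δhep. The canalicular bile salt pump Abcb11 had 202, 109 and 214 CPM in Tsc1Δhep and 846, 819 and 725 CPM in Tsc1/p62Δhep. The 2 that fell were export carriers of the basolateral side, Abcc4 and Slc51b, both known to be induced in cholestasis. The exporter Abcc3 of the same list was not called, and Slc51a, with 23 counts in all, was not tested. Slc51b read 30.2, 4.17 and 1.22 CPM in Tsc1Δhep and 0, 0 and 0.260 CPM in Tsc1/p62Δhep and was not called without any 1 of the Tsc1/p62Δhep libraries.

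Of 25 genes of the growth hormone axis and male-biased liver genes 13 rose and 2 fell (Igfbp1 and Socs2). The median was 1.47, and 9 rises were kept without each library. The list was not divided by the direction in which growth hormone acts on each gene, so the rises are no reading of the hormone's activity. Igf1, the hormone's main endocrine product, stood at 104, 108 and 129 CPM in Tsc1Δhep and 758, 742 and 404 CPM in Tsc1/p62Δhep, 5.59-fold higher. Serpina3k, a secreted serpin, read 207, 320.1 and 165 CPM in Tsc1Δhep and 8162, 8769 and 4205 CPM in Tsc1/p62Δhep, Elovl3, a fatty acid elongase, 2.12, 0.379 and 0.986 CPM in Tsc1Δhep and 41.3, 55.4 and 53.9 CPM in Tsc1/p62Δhep, and the binding protein Igfbp2 18.4, 27.9 and 31.4 CPM in Tsc1Δhep and 253, 268 and 476 CPM in Tsc1/p62Δhep. Some of the major urinary proteins, pheromone carriers with near-identical copies whose counts are uncertain, varied widely within the double-deleted group. Mup3 had 11.7, 218 and 90.2 CPM in Tsc1Δhep and 6521, 8434 and 5157 CPM in Tsc1/p62Δhep, but Mup7 had 0.0867, 0.894 and 0.422 CPM in Tsc1Δhep and 1598, 923 and 8.24 CPM in Tsc1/p62Δhep, so that library 3 of the double-deleted mice was far below the other 2 of its group for Mup7 and not for Mup3. The same library was lowest of its group for Slco1a1, an organic anion carrier (0.303, 2.22 and 1.69 CPM in Tsc1Δhep and 261, 432 and 92.8 CPM in Tsc1/p62Δhep), and for Hsd3b5, a steroid reductase (3 counts over the Tsc1Δhep libraries and 793 over the others, a ratio of 479-fold (95% interval 163 to 2330.1)). It was the highest for the female-biased Cyp2b13, at 0.737, 0.515 and 0.329 CPM in Tsc1Δhep and 4.31, 1.38 and 156 CPM in Tsc1/p62Δhep, a call lost without that library or any 1 of the Tsc1Δhep libraries. Both Igfbp1 and Socs2 lost their call in 4 or more of the 6 fits with a library left out.

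Plasma proteins of the hepatocyte rose unevenly. Of 30 hepatocyte markers 11 rose and 0 fell, 7 of them kept without each library and 7 called without Tsc1/p62Δhep library 1, with a median of 0.70, which fell to 0.37 when libraries were scaled by their totals. The serpin Serpina1a had 172, 312 and 262 CPM in Tsc1Δhep and 1523, 1359.5 and 1479 CPM in Tsc1/p62Δhep. Its paralog Serpina1e had 13, 82.2 and 49.3 CPM in Tsc1Δhep and 6475, 7098 and 1092 CPM in Tsc1/p62Δhep, and the 5 Serpina1 copies, which share much of their sequence, all rose. Alb read 17197, 41999 and 14262 CPM in Tsc1Δhep and 48077, 48333 and 73331 CPM in Tsc1/p62Δhep (log2 fold change 1.21, adjusted p of 0.0907), with Tsc1Δhep library 2 close to the double-deleted ones. Fga and Hpx had log2 fold changes of -0.19 and -0.33, not past the threshold. Of 38 complement and coagulation genes 10 rose and 1 fell, with rises of 5, 6 and 5 without Tsc1Δhep library 2 and Tsc1/p62Δhep libraries 1 and 2. The fall was C1qa, a macrophage product. Factor F11 had 6.46, 7.59 and 11.5 CPM in Tsc1Δhep and 74.9, 73.01 and 30.4 CPM in Tsc1/p62Δhep and the prekallikrein gene Klkb1 18.5, 25.7 and 66.2 CPM in Tsc1Δhep and 254, 295 and 223 CPM in Tsc1/p62Δhep. Of 25 nuclear receptors and hepatocyte transcription factors 10 rose and 0 fell, a count of 3 to 4 without Tsc1Δhep library 2 or any 1 of the Tsc1/p62Δhep libraries and of 16 without Tsc1Δhep library 3. Esrrg read 0, 0.0813 and 0.282 CPM in Tsc1Δhep and 3.96, 2.36 and 5.84 CPM in Tsc1/p62Δhep, whereas Hnf4a, the master regulator, had 420.4, 599 and 592 CPM in Tsc1Δhep and 756, 768 and 853 CPM in Tsc1/p62Δhep and did not pass (adjusted p of 0.121).

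Lipid genes had fewer calls. Of 20 lipogenic genes 3 rose (Elovl5, Scd1 and Lpin1) and 1 fell (Scd2), of 25 genes of PPARα and fatty acid oxidation 4 rose and 0 fell (Acaa1b, Acaa2 and Fabp1 among them), and of 21 cholesterol synthesis genes 1 rose. The rises went to 11, 12 and 4 without Tsc1Δhep library 3 and to 1, 1 and 0 without Tsc1Δhep library 2. They stood at 1, 2 and 0 without Tsc1/p62Δhep library 1 or 2 and at 3, 2 and 7 without library 3. Lpin1, a phosphatidate phosphatase, read 65.3, 136 and 109 CPM in Tsc1Δhep and 902, 437 and 959 CPM in Tsc1/p62Δhep, 7.39-fold higher. The desaturases parted: Scd2, the form of fetal liver, stood at 185, 162 and 47.3 CPM in Tsc1Δhep and 15.1, 7.54 and 4.8 CPM in Tsc1/p62Δhep, whereas Scd1, the adult form, rose 3.45-fold, a call lost in 4 of the 6 fits. Apoa4 had 2819, 951 and 1859 CPM in Tsc1Δhep and 154, 198 and 361 CPM in Tsc1/p62Δhep and was 1 of the 2 apolipoproteins that fell, with Apoc2, while 5 of 17 rose. The rises numbered 8 without Tsc1Δhep library 1 and 3 without any 1 of the Tsc1/p62Δhep libraries, and Apoc2 was not called without Tsc1Δhep library 2 or Tsc1/p62Δhep library 1 or 2.

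Fetal and tumour markers made up the list with the highest share of falls. The lists were chosen with earlier results of these data known, so that this rank is no test. Of 28 oncofetal and liver tumour markers tested 25 fell and 1, Robo1, rose, the median was -3.95, and 16 falls held without each library. Without Tsc1/p62Δhep library 2 there were 16 in all. Robo1 was called in 2 of those 6 fits. Afp, the fetal albumin relative, read 33.97, 40.9 and 8.03 CPM in Tsc1Δhep and 1.13, 1.7 and 0.584 CPM in Tsc1/p62Δhep, and H19, an imprinted fetal RNA, 28.2, 362 and 41.5 CPM in Tsc1Δhep and 0.212, 1.25 and 1.62 CPM in Tsc1/p62Δhep. The fetal mRNA-binding protein gene Igf2bp3 had 1553 counts in Tsc1Δhep and 1 in Tsc1/p62Δhep, a ratio of 856-fold (95% interval 153 to 33837). Tff3, a secreted trefoil peptide, stood at 882, 811 and 258 CPM in Tsc1Δhep and 0.424, 1.84 and 0.390 CPM in Tsc1/p62Δhep, 729-fold lower (log2 fold change -9.51 ± 0.88 SE, edgeR adjusted p of 0.00104). Spink3, a trypsin inhibitor, had 216, 265 and 33.98 CPM in Tsc1Δhep and 0.212, 0.786 and 0.649 CPM in Tsc1/p62Δhep, the surface protein gene Ly6d 599, 234 and 247 CPM in Tsc1Δhep and 0.989, 1.25 and 4.28 CPM in Tsc1/p62Δhep and S100a11, a calcium-binding protein, 98.4, 50.4 and 76.9 CPM in Tsc1Δhep and 1.77, 3.08 and 4.09 CPM in Tsc1/p62Δhep. For Afp, Spink3 and Tff3 the lowest value of Tsc1Δhep was in library 3, yet it lay above all double-deleted libraries. Cd44, which also marks liver tumour-initiating cells, varied little within the groups (72.4, 71.1 and 55.4 CPM in Tsc1Δhep and 4.24, 4.26 and 3.7 CPM in Tsc1/p62Δhep).

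Progenitor and duct genes fell in part. Of 24 cholangiocyte and progenitor genes 15 fell and 0 rose, with a median of -2.37 and counts of 8 and 9 without Tsc1/p62Δhep libraries 1 and 2. The keratins Krt8 and Krt18, made by hepatocytes as well, read 734, 662 and 543 CPM in Tsc1Δhep and 148, 151 and 119 CPM in Tsc1/p62Δhep, and 758, 757 and 470.5 CPM in Tsc1Δhep and 109, 136 and 97.8 CPM in Tsc1/p62Δhep. Krt7, Krt19 and Epcam, the markers most restricted to ducts, stood under 14 CPM in all 6 libraries and did not pass, with values of -0.93, -2.71 and -1.21. The osteopontin gene Spp1, made by ducts, injured hepatocytes and macrophages, had 5185, 2212 and 724 CPM in Tsc1Δhep and 91.8, 75.7 and 119 CPM in Tsc1/p62Δhep. St14, a membrane protease, stood at 59.01, 39.1 and 30.7 CPM in Tsc1Δhep and 0.848, 0.393 and 0.844 CPM in Tsc1/p62Δhep and the integrin Itga6 at 23.4, 13.7 and 14.4 CPM in Tsc1Δhep and 0.706, 0.655 and 0.519 CPM in Tsc1/p62Δhep, each apart in every library. Of 22 YAP and TEAD targets 8 fell and 0 rose, with 5 and 4 falls without Tsc1/p62Δhep libraries 1 and 2. Tgfb2 read 15.1, 28.2 and 20.1 CPM in Tsc1Δhep and 0.424, 0.655 and 0.779 CPM in Tsc1/p62Δhep (33.7-fold lower) and Ankrd1 5.68, 5.15 and 3.57 CPM in Tsc1Δhep and 0.0706, 0.197 and 0.325 CPM in Tsc1/p62Δhep.

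Calls among cell division genes differed by phase. Of 44 cell cycle genes 26 fell and 0 rose, the median was -2.27, and 18 falls held without each library. Most of the calls lay in mitosis: of 25 mitotic genes 24 fell, all but Cdk1, whereas of 11 genes of DNA replication 0 were called. Mki67 had 7.24, 13.2 and 16 CPM in Tsc1Δhep and 1.27, 0.918 and 0.844 CPM in Tsc1/p62Δhep, Top2a, the decatenating topoisomerase, 11, 17.5 and 11.3 CPM in Tsc1Δhep and 0.918, 0.721 and 1.82 CPM in Tsc1/p62Δhep and Prc1, of the cleavage spindle, 10.7, 10.4 and 5.21 CPM in Tsc1Δhep and 0.353, 0.328 and 0.584 CPM in Tsc1/p62Δhep. Foxm1, the transcription factor of the mitotic programme, read 2.77, 4.01 and 2.86 CPM in Tsc1Δhep and 0.212, 0.393 and 0.130 CPM in Tsc1/p62Δhep. Cdk1 stood at 15.4, 22.9 and 6.34 CPM in Tsc1Δhep and 1.06, 1.05 and 6.43 CPM in Tsc1/p62Δhep: double-deleted library 3 was far above the other 2 and reached the lowest Tsc1Δhep library. That library was also the highest of its group for Mcm2 (8.1, 16.3 and 13.8 CPM in Tsc1Δhep and 5.09, 5.31 and 18.7 CPM in Tsc1/p62Δhep) and Ccnd1 (26.3, 85.9 and 40.6 CPM in Tsc1Δhep and 12.6, 12.5 and 67.2 CPM in Tsc1/p62Δhep). In sum the 11 replication genes had 182, 244 and 147 CPM in Tsc1Δhep and 99.9, 93.0 and 200 CPM in Tsc1/p62Δhep, and the 25 mitotic ones 170.0, 207 and 115 CPM and 16.6, 15.1 and 28.1 CPM. The replication sums of Tsc1/p62Δhep libraries 1 and 2 lay below every Tsc1Δhep library, and that of library 3 did not. Calls for the replication genes without that library were not counted, so the lack of falls there may rest on it. The division by phase too was made with the values in view.

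The cell cycle homology region, TTTGAA on either strand, is the promoter element of late cell cycle genes. It stood in 17.9% of all promoters and in those of 14.5% of genes tested, 17.0% of genes called lower and 15.8% of those called higher. The cell cycle list was drawn from known genes, so that its share is no test. Of its 34 genes with a promoter 18 held the element, 14 of which fell. Prc1, Mki67 and Top2a are shown as genes of these whose match lies before the start, and Mki67 carried a pair of matches.
Prc1 (chr7:80294421-80294475, + strand): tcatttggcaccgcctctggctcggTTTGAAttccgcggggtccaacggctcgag
Mki67 (chr7:135716447-135716520, - strand): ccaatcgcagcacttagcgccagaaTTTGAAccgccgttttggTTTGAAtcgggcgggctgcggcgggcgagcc
Top2a (chr11:99024190-99024237, - strand): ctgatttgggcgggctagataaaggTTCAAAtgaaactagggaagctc

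The proto-oncogene Myc fell 6.51-fold, from 14.7, 20.7 and 8.26 CPM to 1.48, 1.7 and 3.51 CPM (log2 fold change -2.70 ± 0.48 SE, edgeR adjusted p of 0.00769). Of 31 genes of MYC and ribosome biogenesis 4 fell, Myc with Nop56, Nop58 and Nhp2, with 11 falls when Tsc1Δhep library 3 was left out and 2 when Tsc1/p62Δhep library 1 or 2 was. Among 26 p53 targets 3 rose and 6 fell. The rises were lost without Tsc1Δhep library 2 or any 1 of the Tsc1/p62Δhep libraries, and the falls numbered 11 without Tsc1Δhep library 3 and 3 without Tsc1Δhep library 2 or Tsc1/p62Δhep library 1. Pmaip1, the BH3-only protein NOXA, had 30.98, 28.8 and 6.66 CPM in Tsc1Δhep and 0.141, 0.262 and 0.519 CPM in Tsc1/p62Δhep, whereas Cdkn1a, the p21 gene, read 91.6, 85.7 and 43.5 CPM in Tsc1Δhep and 19.4, 15.99 and 102 CPM in Tsc1/p62Δhep, with the third double-deleted library above all others.

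**Figure D3:**
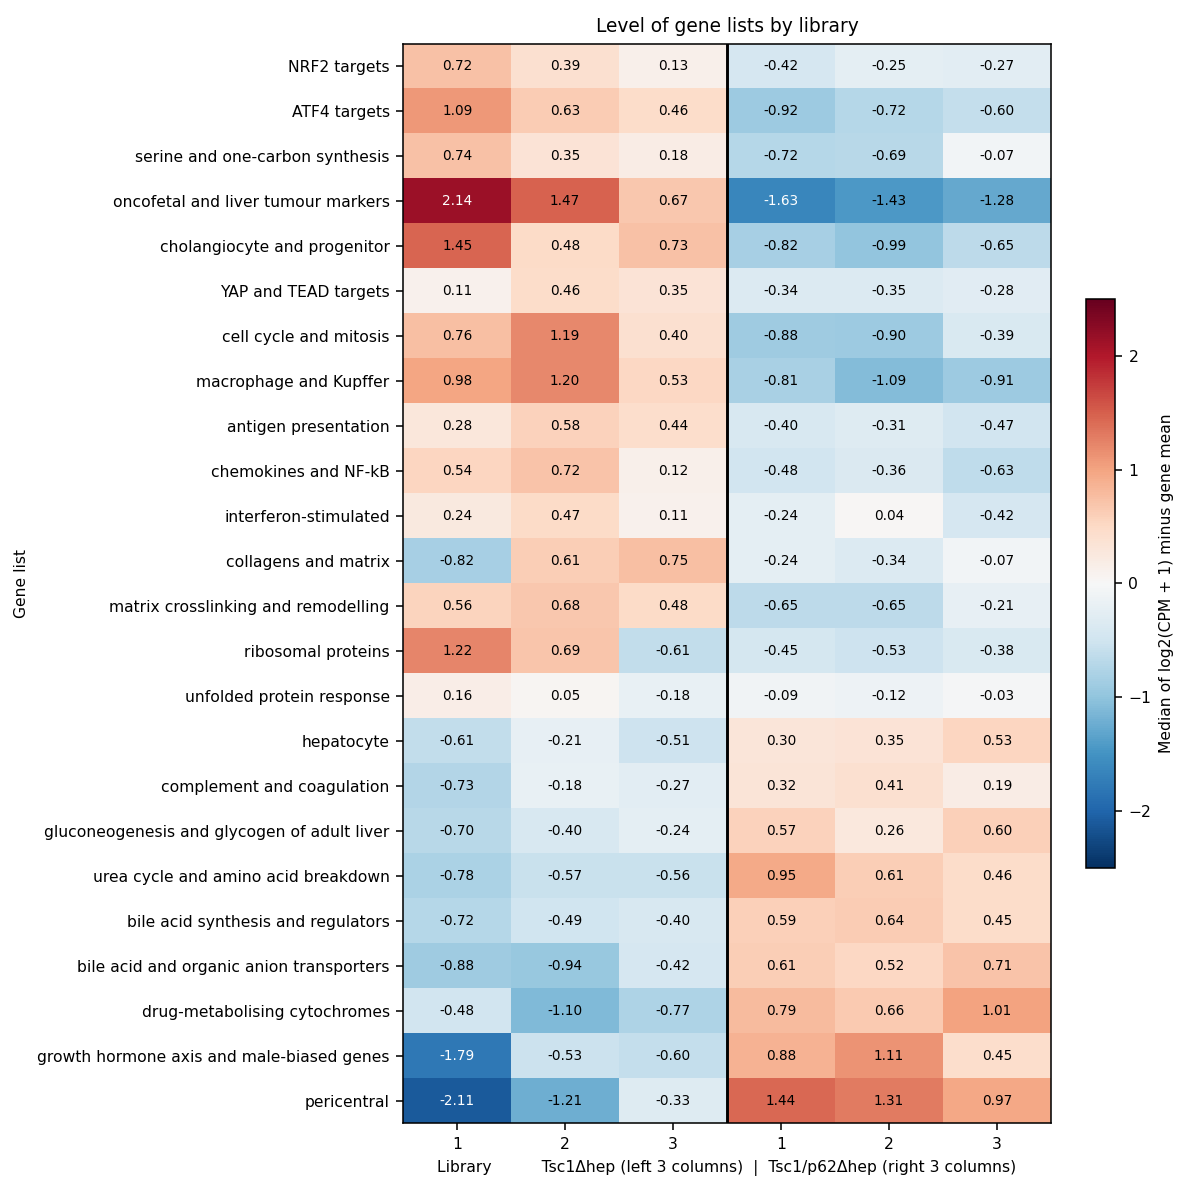
Level of 24 gene lists in each of the 6 libraries, as the median over tested members of log2(CPM + 1) minus the gene's mean over the 6 libraries, drawn as a colour from blue (low) to red (high) with the value printed. Tsc1Δhep library 1 is highest for oncofetal markers at 2.14 and lowest for pericentral markers at -2.11, and Tsc1Δhep library 3 lies between it and the double-deleted libraries, at 0.67 and -0.33.

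Macrophage genes fell widely although the deletion was directed to hepatocytes. In whole liver, fewer cells of a type and less RNA per cell cannot be told apart. Of 36 macrophage and Kupffer genes 29 fell and 1, Cd163, rose, the median was -2.54 and 20 falls held without each library. Cd163 was not called without Tsc1Δhep library 2 or any 1 of the Tsc1/p62Δhep libraries. Summed over the list, Tsc1Δhep had 6821, 3763 and 1696 CPM and Tsc1/p62Δhep 439, 364 and 395 CPM. Such a sum follows its most abundant genes and is no measure of macrophage content. The median over the list of log2(CPM + 1) minus each gene's mean ranked the libraries otherwise. It was 0.98, 1.20 and 0.53 in Tsc1Δhep, highest in library 2, and -0.81, -1.09 and -0.91 in Tsc1/p62Δhep. Cybb, the membrane subunit of the phagocyte oxidase, read 113, 236 and 158 CPM in Tsc1Δhep and 9.04, 9.11 and 9.28 CPM in Tsc1/p62Δhep (log2 fold change -4.21 ± 0.32 SE, edgeR adjusted p of 0.000553), and all 5 subunits of that complex fell. The fractalkine receptor Cx3cr1 had 10.8, 17.6 and 10.7 CPM in Tsc1Δhep and 1.06, 0.590 and 0.779 CPM in Tsc1/p62Δhep, Ccr2, the receptor of entering monocytes, 9.75, 32.5 and 8.92 CPM in Tsc1Δhep and 0.777, 0.852 and 0.779 CPM in Tsc1/p62Δhep and the lysosomal Cd68 23.7, 16.1 and 24.8 CPM in Tsc1Δhep and 2.54, 2.69 and 3.7 CPM in Tsc1/p62Δhep. The complement genes C1qa and C1qb, made by all liver macrophages, fell less, at 41.03, 46.2 and 31.4 CPM in Tsc1Δhep and 13.3, 15.01 and 16.5 CPM in Tsc1/p62Δhep for C1qa and by 3.47-fold for C1qb.

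Genes of monocyte-derived and of resident macrophages did not move together. All 11 genes of monocyte-derived or lipid-associated macrophages in the lists fell (Ccr2, Cx3cr1, Itgam, Itgax, Ly6c2, Trem2, Gpnmb, Cd9, Lgals3, Cd14 and Mmp12), with sums of 863, 261 and 165 CPM against 14.8, 14.0 and 21.0 CPM. Of these, Trem2, Gpnmb, Ly6c2 and Mmp12 lost the call in some fits with a library left out. RNA of whole liver does not tell which cells made it, and Cd9 alone was a large part of the Tsc1Δhep sums (329, 112 and 70.1 CPM). Of 6 markers of resident Kupffer cells (Clec4f, Timd4, Vsig4, Cd5l, Marco and Cd163) 0 fell and 1 rose, with 0.520, 58.1 and 122 CPM against 90.1, 69.9 and 76.6 CPM in sum. Clec4f, a lectin of Kupffer cells alone, had 0.0433, 20.4 and 40.9 CPM in Tsc1Δhep and 31.6, 22.5 and 25.8 CPM in Tsc1/p62Δhep, and its log2 fold change of 0.38 turned to -0.19 without Tsc1Δhep library 1 and to -0.03 with library totals. In summed CPM Tsc1Δhep library 1 had the least of the resident set and the most of the other, and Tsc1Δhep library 3 the reverse within its group. Gene by gene, library 1 was the highest of Tsc1Δhep for 6 of the 11, with Cd9 and Gpnmb the most abundant there (329, 112 and 70.1 CPM and 238, 2.57 and 19.99 CPM in Tsc1Δhep), and library 2 for the other 5, Ccr2, Cx3cr1, Itgam, Itgax and Ly6c2. The sets were drawn from the lists after their values were known.

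**Figure D4:**
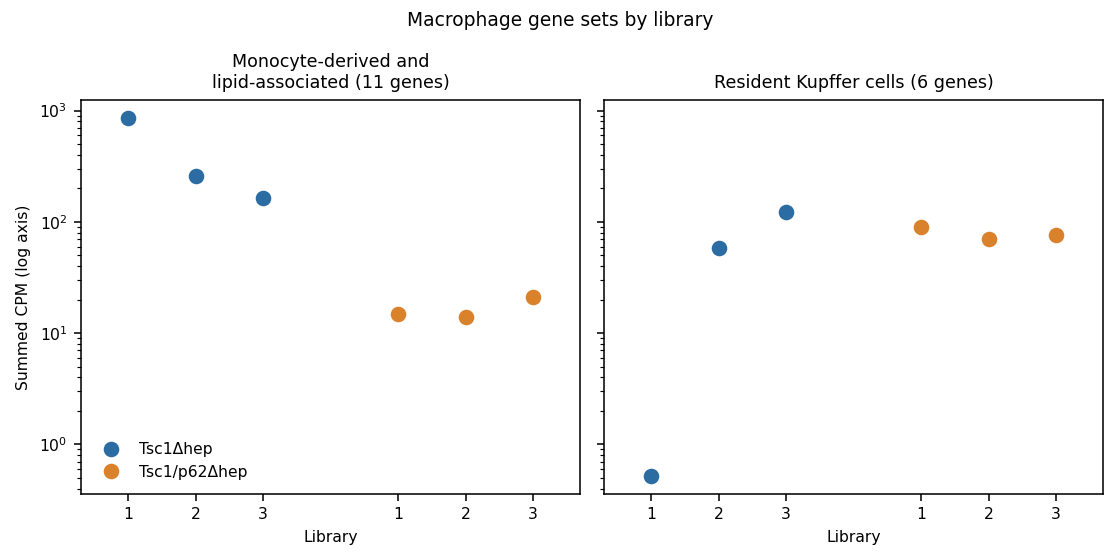
Summed CPM on a log axis of 11 genes of monocyte-derived or lipid-associated macrophages and of 6 resident Kupffer cell markers in each library. The first set is at 165 to 863 CPM in Tsc1Δhep and at 14.0 to 21.0 CPM in Tsc1/p62Δhep. The second spans 0.520 to 122 CPM in Tsc1Δhep and 69.9 to 90.1 CPM in Tsc1/p62Δhep. RNA of whole liver does not tell which cells expressed these genes.

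Antigen presentation divided by class. Of 20 genes 10 fell and 0 rose, and the falls numbered 6 and 4 without Tsc1/p62Δhep libraries 1 and 2, with 2 rises without Tsc1Δhep library 3. All 8 genes of class II presentation, which serves professional antigen-presenting cells, were among them, whereas of 9 genes of class I presentation, common to all cells, 0 passed in either direction. The other 2 falls were Psmb8 and Psmb9, subunits of the immunoproteasome. H2-Aa read 61.7, 181 and 67.1 CPM in Tsc1Δhep and 15.3, 11.9 and 14.6 CPM in Tsc1/p62Δhep, and H2-Ab1 48.05, 147 and 46.1 CPM in Tsc1Δhep and 12.2, 10.1 and 11.04 CPM in Tsc1/p62Δhep, with Tsc1Δhep library 2 the highest for both. B2m, the class I light chain, had 3102, 2770.1 and 2666 CPM in Tsc1Δhep and 2064, 2447 and 2279.5 CPM in Tsc1/p62Δhep. Of 21 markers of T and NK cells 3 had enough counts to be tested and 1, Cd28, fell, a call lost without Tsc1/p62Δhep library 1 (summed 5.49 to 18.1 CPM in Tsc1Δhep and 3.77 to 6.99 CPM in Tsc1/p62Δhep). Of 11 markers of B and plasma cells 4 were tested and 0 called (summed 138 to 187 CPM in Tsc1Δhep and 186 to 276 CPM in Tsc1/p62Δhep). Most of the latter sum was Xbp1, which hepatocytes also express, at 169, 127 and 174 CPM in Tsc1Δhep and 204, 255 and 176 CPM in Tsc1/p62Δhep, and Cd79a and Ms4a1 had 48 and 36 counts over the 6 libraries. Their part in the class II values was not tested.

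Signals that attract or activate leukocytes fell too. Of 26 chemokine and NF-κB genes 12 fell and 2 rose (Cxcl12 and Nfkbia), with 7 falls when Tsc1Δhep library 2 was left out and 6 when Tsc1/p62Δhep library 1 was. Of the rises, that of Cxcl12 was lost without Tsc1Δhep library 2 or Tsc1/p62Δhep library 2. Cx3cl1, the ligand of Cx3cr1, stood at 5.55, 16.8 and 17.2 CPM in Tsc1Δhep and 0.494, 0.262 and 1.1 CPM in Tsc1/p62Δhep, and Cxcl16 at 50.6, 38.01 and 16.3 CPM in Tsc1Δhep and 6.22, 6.42 and 4.61 CPM in Tsc1/p62Δhep. Ccl2, the ligand of Ccr2, read 24.2, 42.5 and 1.83 CPM in Tsc1Δhep and 0.283, 0.459 and 0.454 CPM in Tsc1/p62Δhep and lost its call without Tsc1/p62Δhep library 1. The adhesion molecule Icam1 had 70.8, 92.7 and 65.6 CPM in Tsc1Δhep and 12.5, 18.2 and 14.7 CPM in Tsc1/p62Δhep and the NF-κB feedback inhibitor Tnfaip3 18.8, 28.8 and 19.2 CPM in Tsc1Δhep and 5.16, 3.93 and 3.51 CPM in Tsc1/p62Δhep, but another feedback inhibitor, Nfkbia, rose (24.2, 32.02 and 24.5 CPM in Tsc1Δhep and 59.97, 52.8 and 83.2 CPM in Tsc1/p62Δhep). The subunit gene Rela had a log2 fold change of 0.49 and did not pass. Of 32 interferon-stimulated genes 13 fell and 1, Igtp, rose, with 2 falls without Tsc1/p62Δhep library 1 and 8 without Tsc1Δhep library 2 or Tsc1/p62Δhep library 2 or 3. Igtp was not called without Tsc1Δhep library 2 or Tsc1/p62Δhep library 1 or 2. Ifit2 had 26.6, 46.98 and 18.2 CPM in Tsc1Δhep and 3.32, 3.08 and 2.92 CPM in Tsc1/p62Δhep and Mx1 1.56, 3.2 and 1.45 CPM in Tsc1Δhep and 0.283, 0.262 and 0.195 CPM in Tsc1/p62Δhep.

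Some genes of the matrix and of its crosslinking fell. Of 28 collagens and matrix genes 9 fell and 1, Col5a2, rose, and the falls numbered 14 without Tsc1Δhep library 1 and 4 without Tsc1Δhep library 2 or Tsc1/p62Δhep library 1 or 2. Col4a1 and Col4a2, the network collagens of basement membrane, read 67.7, 166 and 196 CPM in Tsc1Δhep and 16.04, 14.5 and 12.4 CPM in Tsc1/p62Δhep, and 39.3, 76.8 and 132 CPM in Tsc1Δhep and 10.2, 13.1 and 9.8 CPM in Tsc1/p62Δhep. Sparc, a collagen-binding protein, had 453, 422 and 248 CPM in Tsc1Δhep and 46.1, 46.7 and 52.1 CPM in Tsc1/p62Δhep. The fibrillar Col1a1 had 9.06, 40.8 and 42.01 CPM in Tsc1Δhep and 4.03, 4.06 and 5.71 CPM in Tsc1/p62Δhep and was not called without Tsc1Δhep library 2 or Tsc1/p62Δhep library 1 or 2. Col5a2 was joined by 1 more rise without Tsc1Δhep library 1 and by 4 without Tsc1Δhep library 3. Of 23 genes of crosslinking and remodelling 11 fell and 0 rose, with 3, 3 and 5 falls without Tsc1/p62Δhep libraries 1, 2 and 3 and 1 rise without Tsc1Δhep library 3. The lysyl oxidase homologue Loxl2 stood at 27.99, 45.1 and 39.5 CPM in Tsc1Δhep and 1.62, 1.7 and 2.53 CPM in Tsc1/p62Δhep, 19.1-fold lower (log2 fold change -4.26 ± 0.32 SE, edgeR adjusted p of 0.000553).

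Stellate cell genes differed by state. Of 19 markers 6 fell and 1, Ecm1, rose, and all 4 contractile or myofibroblast genes (Acta2, Tagln, Myl9 and Vim) were among the falls. Acta2, the smooth muscle actin of activated stellate cells, had 4.51, 14.5 and 8.03 CPM in Tsc1Δhep and 0.918, 1.38 and 0.779 CPM in Tsc1/p62Δhep. Of 8 markers of quiescent stellate cells 0 fell. Lrat, which stores vitamin A, read 0.0867, 2.36 and 7.37 CPM in Tsc1Δhep and 17.6, 11.8 and 13.3 CPM in Tsc1/p62Δhep and Reln 0.303, 6.83 and 30.6 CPM in Tsc1Δhep and 49.7, 41.5 and 60.6 CPM in Tsc1/p62Δhep, and neither passed (adjusted p of 0.15 and 0.206). Again Tsc1Δhep library 1 was far below the rest. Ecm1 was not called without Tsc1Δhep library 2 or any 1 of the Tsc1/p62Δhep libraries, and 4 markers rose without Tsc1Δhep library 3. Of the 6 falls 2, Acta2 among them, kept their call without each library, and the falls numbered 3, 2, 2 and 3 without Tsc1Δhep library 2 and Tsc1/p62Δhep libraries 1, 2 and 3. Of 25 endothelial genes 4 fell (Pecam1, Flt4, Cd34 and Emcn) and 0 rose, of which Cd34 alone kept its call, with 2 falls when Tsc1Δhep library 2 was left out and 1 when Tsc1/p62Δhep library 2 or 3 was. When Tsc1Δhep library 3 was left out, 4 endothelial genes were called higher. Cd34, a marker of capillarised sinusoids, read 14.3, 12.7 and 7.37 CPM in Tsc1Δhep and 1.13, 1.44 and 1.62 CPM in Tsc1/p62Δhep, whereas the sinusoidal Stab2 had 10.6, 18.9 and 63.97 CPM in Tsc1Δhep and 72.8, 70.1 and 70.05 CPM in Tsc1/p62Δhep and did not pass.

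Housekeeping lists had few calls, and their number hung on 1 library. Ribosomal protein genes had 2 falls among 46 (Rpl37 and Rps24), a median of -1.04, and levels of 1.22, 0.69 and -0.61 in Tsc1Δhep libraries 1 to 3 against -0.53 to -0.38 in Tsc1/p62Δhep. Without Tsc1Δhep library 3, 43 of 46 were called lower, and without Tsc1Δhep library 2 or any 1 of the Tsc1/p62Δhep libraries 0 were. Most of these transcripts are short, and after removal of the GC content and length trend of each library the median was -0.67. The respiratory chain had 2 rises of 38 (Sdha and Uqcrfs1), the proteasome 1 rise and 2 falls of 31, and the unfolded protein response 1 rise, Sel1l, of 22. Without Tsc1Δhep library 3 these lists had 8, 11 and 5 falls, and without Tsc1Δhep library 2 they had 0 rises. Hspa5, the chaperone of the last list, read 1539.7, 1443 and 967 CPM in Tsc1Δhep and 746, 677 and 919.9 CPM in Tsc1/p62Δhep (adjusted p of 0.0796). Acute phase genes had 3 rises and 5 falls of 25: Lcn2 fell to 7.77, 10.1 and 10.3 CPM from 615, 512 and 251 CPM, and Orm2 to 10.5, 20.4 and 13.96 CPM from 151, 728 and 108 CPM, whereas Saa4, a constitutive member, rose to 469.6, 407 and 608 CPM from 43.02, 99.1 and 49.7 CPM. These 3 genes kept their call without each library, while the list had 12 falls when Tsc1Δhep library 3 was left out, 3 when Tsc1Δhep library 2 or Tsc1/p62Δhep library 1 was and 2 when Tsc1/p62Δhep library 2 was. It had 1 rise left without Tsc1Δhep library 2 or Tsc1/p62Δhep library 1 or 3. Of 19 clock genes 4 rose (Bhlhe40, Gm129 and Usp2 among them), and 7, 2, 13, 1 and 2 without Tsc1Δhep libraries 1 to 3 and Tsc1/p62Δhep libraries 1 and 2. The hour of collection is unknown here.

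The ends of the whole ranking, among genes with at least 50 counts on average, were as follows. Genes were ordered by the fitted log2 fold change, which for a gene at 0 in a group depends on the prior count, so that the order among such genes and against others is not one of measured folds. Of the 12 genes at the lower end 8 had no count in any double-deleted library, and only a lower bound can be given, with 3 counts over the group as the floor. C330005M16Rik was at least 225-fold lower, the Wnt ligand Wnt16 at least 114-fold, Tm4sf20 at least 111-fold, Myot at least 118-fold, Slco1a6 at least 69.6-fold and 5730559C18Rik at least 107-fold. Guca2a (at least 145-fold) and Serpinb9e (at least 104-fold) owed most of their counts to 1 Tsc1Δhep library each, library 2 and library 1, and lost their call without any 1 of the Tsc1/p62Δhep libraries. Mgst2, a microsomal glutathione transferase, went from 4425 counts to 3, a ratio of 813-fold (95% interval 278 to 3944), and the kinase-like Styk1 from 101, 55.6 and 59.8 CPM to 0.212, 0.0655 and 0 CPM. Among the 12 at the upper end were Mup genes, Slco1a1, Hsd3b5 and Serpina1e of the groups above, and Susd4, a complement regulator, at 0.0867, 0.135 and 0.282 CPM in Tsc1Δhep and 24.3, 29.95 and 5.84 CPM in Tsc1/p62Δhep, and Lrtm1 at 0.0867, 0.0271 and 0.0469 CPM in Tsc1Δhep and 29.4, 18.1 and 6.88 CPM in Tsc1/p62Δhep.

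Whether p62 loss acted differently with and without Tsc1 was asked with an interaction contrast over all 12 libraries, on 13231 genes. The p62 effect was more positive in Tsc1-deleted liver for 894 genes and more negative for 1233, which is 6.76% and 9.32% of those tested. In Tsc1-intact liver itself 0 genes rose and 2 fell of 12567, Sqstm1 and Cbr3, and 1020 genes in all had an unadjusted p below 0.05 there. The interaction uses the same Tsc1-deleted libraries as the main comparison and is not independent of it. With 1 of the 12 libraries left out, the first count ranged from 465 to 2401 and the second from 676 to 2551, both highest without Tsc1Δhep library 3. Only p62F/F lacked Cre, so an effect of Cre does not cancel in this contrast. The Tsc1-intact libraries were deposited apart from the Tsc1-deleted ones and may have been processed apart. The ribosomal RNA gene Rn45s took 1.91% to 3.50% of counts in the former. In the latter it took 1.21% in Tsc1/p62Δhep library 1 and 0.08% to 0.18% in all others. A factor that scales a whole deposit cancels in the contrast, but other differences between deposits cannot be told from Tsc1 state. For Cyp1a2 the difference of effects was 5.55 ± 0.46 SE on the log2 scale (edgeR adjusted p of 0.000132), from a value of -0.33 in Tsc1-intact liver to 5.22. For Cd44 it was -4.45 ± 0.36 (adjusted p of 0.000132), for Pfkp -5.06 ± 0.47 (0.000189), for Cybb -4.23 ± 0.39 (0.000189) and for Mthfd2 -5.60 ± 0.62 (0.000429).

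The number of members called in the interaction varied among the lists. Of the 36 macrophage genes 27 had a more negative effect in Tsc1-deleted liver, of 34 ATF4 targets 16, of 28 genes of amino acid breakdown 16 a more positive one, of 25 growth hormone axis genes 12 and of 23 crosslinking genes 11 a more negative one. Of 35 NRF2 targets it was 7, and of 28 oncofetal markers 9, although 25 of these had fallen. Some genes had values of like size in both backgrounds. Afp had -3.37 with Tsc1 intact and -4.60 with Tsc1 deleted, Scd2 -3.36 and -3.85, and Rragd -2.02 and -2.43. None of these was called in the interaction (edgeR adjusted p of 0.551, 0.715 and 0.651). In Tsc1-intact liver itself none of them was called either, so an effect shared by both backgrounds is not established. By contrast Gpx3 had 0.30 and -7.37 (interaction adjusted p of 0.00042), and Hmox1 0.64 and -1.42 (0.00354). A gene not called in the interaction may still differ between the backgrounds. Of 22 unfolded protein response genes 7 had a more negative effect with Tsc1 deleted, Hspa5 among them (-1.73 ± 0.43, adjusted p of 0.0204).

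**Figure D5:**
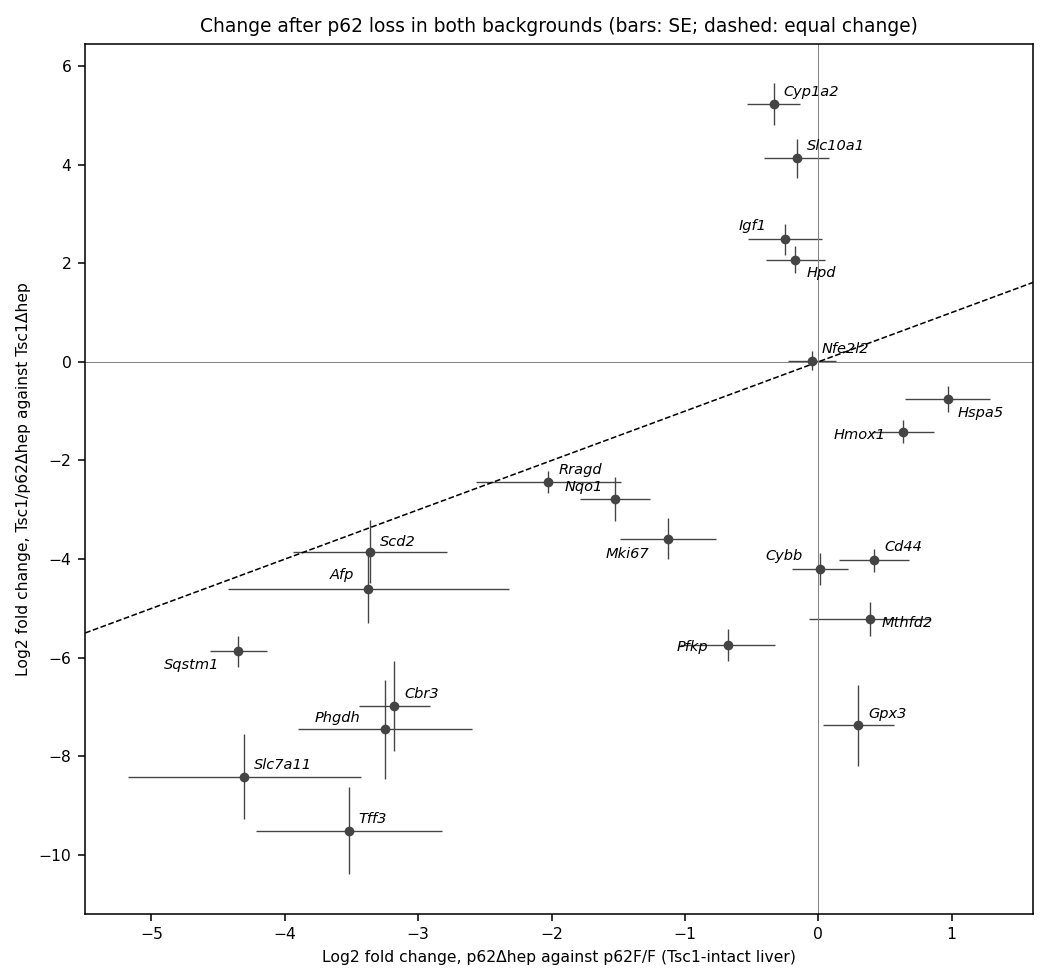
Log2 fold change after p62 loss in Tsc1-intact liver (x axis, p62Δhep against p62F/F) and in Tsc1-deleted liver (y axis, Tsc1/p62Δhep against Tsc1Δhep) for named genes, with SE bars and the line of equal change. Sqstm1, Afp, Scd2 and Rragd have negative values on both axes, and Gpx3, Cd44, Mthfd2 and Pfkp lie at -0.68 to 0.42 on the x axis and below -4 on the y axis.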

How the data were processed

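Poly(A) RNA from dissected, flash-frozen liver was sequenced from directional libraries on 1 of 2 Illumina instruments, single-end or paired-end, per the labels' protocols, which do not say which library ran where. The authors deposited raw counts per gene symbol. The submitters' processing notes name the build hg 19 although the symbols are those of mouse. The aligner, annotation and use of strand are not stated in the sources used here, so that overlapping genes and close paralogs are uncertain. Symbols were matched to current names for 21571 genes and through older names for 1663. A few symbols (27) had been turned into dates before deposit.

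The 6 libraries were fitted with edgeR 4.0.16 under R 4.3.3: TMM scaling, filterByExpr (minimum count 10, minimum total 15), quasi-likelihood tests, standard errors from the F statistic, and adjusted p below 0.05 (Benjamini-Hochberg over all genes tested). A contrast over 12 libraries tested the dependence on Tsc1. Group levels differed between replicates by more than sampling noise in every pair (chi-square per gene of 36.2 or more), so each library was counted. The script was tested on simulated data. Alternatives were edgeR with other scaling or no filter, DESeq2 1.42.0, limma 3.58.1 on log2(CPM + 1), fits with a library left out, and fits with the replicate number as a block. Libraries with the same number in both groups did not deviate together (correlations of -0.08, -0.08 and -0.13), so numbers were not taken as pairs.

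The comparison, the gene lists and their role divisions were chosen with earlier results of these data known. Named genes are Sqstm1, Tsc1, Nfe2l2, Keap1, Myc and Alb by rule, the 12 highest and 12 lowest fold changes among called genes with at least 50 counts on average and no overlap, and from each list the 5 called members with the smallest p and the 3 with the largest mean count. Other genes named were chosen after their values were seen. Some list members are not reported here.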

Additional observations from a re-analysis of the deposited data

Results flagged for a closer look

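The p62 effect differed between Tsc1-deleted and Tsc1-intact liver, by a test of the difference itself, for 894 genes in the positive and 1233 in the negative direction. Libraries with and without Tsc1 were deposited apart and may have been processed apart. Of the genes whose difference is printed, Gpx3 had the widest, at -7.68 on the log2 scale. Mthfd2 had -5.60, Pfkp -5.06, Cd44 -4.45 and Cybb -4.23, each from little change in Tsc1-intact liver to a fall with Tsc1 deleted. Cyp1a2 was at 5.55 in the other direction. Hmox1 had -2.06 and Hspa5 -1.73, and in Tsc1-intact liver both had positive values, 0.64 and 0.97, short of the threshold there. Groups held 3 libraries, too few for a test of single outlying libraries.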

How the results depend on the processing

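Genes called higher numbered 1167 and genes called lower 1886. The first count moved to 1770 with DESeq2, 2249 with all 12 libraries in 1 fit, 576 with library totals and 1908 after trends by GC content and length were removed. The second moved to 2952 with all 12 libraries and to 3337 with library totals. With 1 library left out they ranged from 351 to 2686 and from 760 to 3139. The interaction calls, 2127 in all, ranged from 1169 to 4952 when a library was left out, 465 to 2401 in the positive and 676 to 2551 in the negative direction. The causes were not tested.

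With the replicate number as a block the counts were 649 higher and 1198 lower, and 911 interaction calls, 368 positive and 543 negative. The numbers do not pair the samples, so that this fit says nothing of weaker effects. No library of Tsc1/p62Δhep correlated best with its own number.

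Of 197 named genes called, all kept their direction in every alternative. These genes were mostly chosen for their calls in these data, so that a kept direction was likely beforehand. Their calls numbered 181 to 195 with other scaling, tests or filters on the 6 libraries and 138 to 194 with 1 library left out. Among named genes not called, signs turned for Nfe2l2 (-0.328 with library totals and -0.0386 to 0.115 with libraries left out), for Clec4f (-0.0296 with library totals and -0.194 to 1.37 with a library left out) and for B2m (0.0286 with GC and length trends removed, with or without the block).

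Depth of 15792048 counts or more does not limit abundant genes, but genes under about 1 CPM rest on few counts, and 3 libraries per group limit every call.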
